A study of Mus musculus with 6 samples.

Results

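The chemokines described here are 10 genes whose secreted or shed products draw leukocytes into the liver, measured in cultured mouse hepatocytes with and without a transgene for MDA-9. They were chosen by symbol, with earlier results of these data known, and all 10 were found among the 55487 genes of the count tables. They fall into 3 classes by the cells their products are best known to attract. The neutrophil-attracting class holds Cxcl1, Cxcl2 and Cxcl5, the monocyte-attracting class holds Ccl2, Ccl7 and Cx3cl1, and the T-cell-attracting class holds Cxcl9, Cxcl10, Cxcl11 and Cxcl16. Of the 10 genes 9 had enough reads to be tested, and Cx3cl1 did not.

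RNA was sequenced from primary hepatocytes put into culture without any treatment, in 2 groups of 3 libraries. Alb/MDA-9 mice carried a heterozygous transgene for human MDA-9, a scaffold protein also called SDCBP or syntenin, tagged with HA at its C terminus and driven by the enhancer and core promoter of the albumin gene, which is active in hepatocytes. WT mice were littermates without the transgene, and both groups shared the B6CBAF1 hybrid background and a regular chow diet. The labels name neither the age or sex of the mice, nor the number of transgenic founders, nor whether the 3 libraries of a group came from separate animals or cultures. The p-values therefore measure the spread between these libraries, which may be technical, and segments of the parental strains shared by chance within a group cannot be told apart from the transgene.

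Chemokines are small proteins that bind G-protein-coupled receptors on leukocytes and guide their migration. The CXC chemokines of the neutrophil class act through CXCR2, CCL2 and CCL7 act through CCR2 on inflammatory monocytes, and CXCL9, CXCL10 and CXCL11 act through CXCR3 on activated T and NK cells. CXCL16 and CX3CL1 are made as membrane proteins with a mucin-like stalk, from which proteases release the soluble form, and their receptors are CXCR6 and CX3CR1. In liver, hepatocytes, Kupffer cells, endothelial cells and stellate cells can all make chemokines. NF-kB is a known activator of Cxcl1, Cxcl2, Ccl2 and Cxcl10, and interferon signalling is a known activator of Cxcl9, Cxcl10 and Cxcl11.

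Promoter sequences are shown for 3 genes because they carry matches to the binding motifs of these activators. RefSeq start sites on GRCm38.p6 were given for 5 of the 10 genes, and each window ran from 250 bases before the start to 50 bases after it. Capitals mark matches on either strand to the NF-kB consensus or to the interferon-stimulated response element, written GAAANNGAAA. The windows are Cxcl1 at chr5:90890995-90891294 on the plus strand, Cxcl2 at chr5:90903649-90903948 on the plus strand and Cxcl10 at chr5:92348840-92349139 on the minus strand.

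Cxcl1: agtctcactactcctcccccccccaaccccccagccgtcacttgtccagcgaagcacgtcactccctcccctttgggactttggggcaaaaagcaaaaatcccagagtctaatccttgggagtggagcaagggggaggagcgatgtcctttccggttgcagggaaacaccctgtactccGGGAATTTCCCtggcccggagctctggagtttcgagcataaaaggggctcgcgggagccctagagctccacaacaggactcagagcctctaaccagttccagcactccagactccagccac

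Cxcl2: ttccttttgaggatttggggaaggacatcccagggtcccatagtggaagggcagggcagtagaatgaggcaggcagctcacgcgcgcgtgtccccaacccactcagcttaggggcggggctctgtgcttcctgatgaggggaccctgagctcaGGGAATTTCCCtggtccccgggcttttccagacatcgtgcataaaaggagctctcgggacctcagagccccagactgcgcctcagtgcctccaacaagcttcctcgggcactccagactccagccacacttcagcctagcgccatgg

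Cxcl10: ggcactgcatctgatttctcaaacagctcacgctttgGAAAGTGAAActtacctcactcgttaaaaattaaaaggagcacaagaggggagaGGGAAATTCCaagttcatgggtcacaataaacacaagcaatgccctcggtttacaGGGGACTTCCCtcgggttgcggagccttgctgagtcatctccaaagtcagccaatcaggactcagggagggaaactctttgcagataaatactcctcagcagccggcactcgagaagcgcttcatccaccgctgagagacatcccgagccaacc

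Cxcl1 and Cxcl2 held the same 11 capital bases, which begin 71 bases before the start of Cxcl1 and 97 bases before the start of Cxcl2. That run reads as the NF-kB consensus on both strands, in 2 overlapping matches. Cxcl10 held an interferon-stimulated response element, then NF-kB matches at 2 places. Of 32544 RefSeq promoter windows of this length, 8.49% held an NF-kB match and 3.45% held the response element. The windows of Cxcl9 and Cx3cl1 held neither motif. The AP-1 motif TGANTCA, in 7.79% of all windows, was found in those of Cxcl9 and Cxcl10, and TATAAA, in 13.6%, in those of Cxcl9 and Cx3cl1. A match describes letters in the window and not a bound site.

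The mRNAs of 2 neutrophil-attracting genes also stood out in their 3′ UTRs. AU-rich elements, built on the pentamer ATTTA in DNA letters, are known to mark short-lived cytokine mRNAs for decay. The 30-base stretches richest in that pentamer, which is in capitals, are printed from the GENCODE transcripts on GRCm38.

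Cxcl1: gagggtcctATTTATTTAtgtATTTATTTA

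Cxcl2: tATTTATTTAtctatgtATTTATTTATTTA

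The longest annotated 3′ UTR of Cxcl1 had 7 pentamers in 592 bases, or 11.8 per kb, a density that 0.724% of 20846 UTRs reached. Cxcl2 had 11 in 1494 bases, or 7.36 per kb, which 2.80% of UTRs reached. The median UTR had 1.26 per kb. Cxcl5 had 4.50, Ccl7 4.60, Ccl2 3.64 and Cxcl10 3.01 pentamers per kb. Cxcl16, Cxcl9, Cxcl11 and Cx3cl1 had between 0.534 and 1.41, near or below the median.

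Reads on the annotated strand numbered 16756725 to 19046739 in the Alb/MDA-9 libraries and 16403918 to 18967611 in the WT libraries. Levels are given as CPM, read counts scaled to library size with TMM factors. On library totals without those factors, 0 reads in a library allows up to 0.158 to 0.183 CPM, counting error only. A gene was called at an adjusted p under 0.05 in edgeR's quasi-likelihood test over all 13296 tested genes. Of these 1920 were called, or 14.4%, with 977 higher and 943 lower in Alb/MDA-9. Scaling by library totals shifted the median log2 change over all tested genes by -0.10 and gave 525 higher and 1622 lower, and upper-quartile factors gave 722 higher and 1087 lower. Alb/MDA-9 3 was set off from the rest along principal component 2, with 16.7% of the variance.

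Of the 9 tested chemokine genes, 6 rose in Alb/MDA-9 hepatocytes and 0 fell. They were Cxcl1, Ccl2, Cxcl9, Cxcl10, Cxcl11 and Cxcl16, that is 1 of 3 tested neutrophil-attracting genes, 1 of 2 tested monocyte-attracting genes and 4 of 4 T-cell-attracting genes. Over all tested genes 7.35% were called higher and 7.09% lower. No chemokine of the 9 was lower at an unadjusted p under 0.05, and 0 were called lower by DESeq2 or by limma voom, which called 7.21% and 9.71% of all tested genes lower. The median log2 change of the 9 was 0.83, against -0.0015 over all tested genes. In 7 of the 9 genes every Alb/MDA-9 library lay above every WT library, as in 17.1% of all tested genes. Against a fold of 1.5, glmTreat called Ccl2, Cxcl10 and Cxcl11, where it called 0.632% of all tested genes higher. The chemokines and the lists below were chosen with earlier results of these data known, so their counts are not independent evidence.

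Markers of Kupffer cells, the resident macrophages, which can also make chemokines, were lower in the same libraries. Their 14 genes summed to 255 to 408 CPM in Alb/MDA-9 and 442 to 455 CPM in WT, and their part in the chemokine values was not tested. In these bulk cultures fewer cells of a type and less RNA per cell cannot be told apart.

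**Figure D1:**
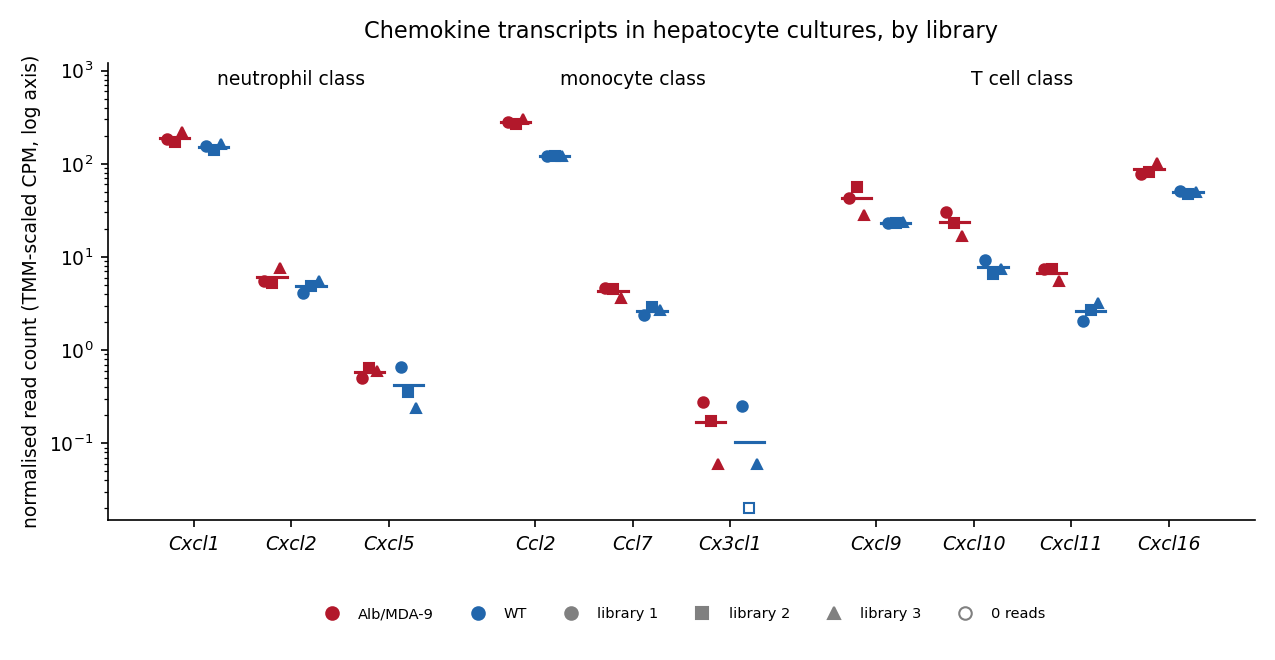
CPM of each chemokine gene on a log axis, with 1 point per library, Alb/MDA-9 left of WT, bars at the group means, and an open point at the bottom for the library with 0 reads. In the 7 genes Cxcl1, Ccl2, Ccl7, Cxcl9, Cxcl10, Cxcl11 and Cxcl16 every Alb/MDA-9 point lies above every WT point.

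Among the neutrophil-attracting genes, Cxcl1 was abundant and rose by a small step. Cxcl1 encodes a CXCR2 ligand, also known as KC, and lies on GRCm38 chromosome 5, 90891241 to 90893115, plus strand. Its levels were 182, 170.1 and 218 CPM in Alb/MDA-9 1 to 3, against 154, 142 and 164 CPM in WT 1 to 3. The groups did not overlap, and Alb/MDA-9 3 was the highest library. The means were 190.3 ± 25.0 CPM in Alb/MDA-9 and 153 ± 11.2 CPM in WT (SD, n = 3 each), a model log2 change of 0.31 (SE 0.09, edgeR adjusted p = 0.0449), or 1.24-fold with a 95% interval of 1.08 to 1.43. The call did not hold with library totals (log2 change 0.21, edgeR adjusted p = 0.183) or without any 1 of Alb/MDA-9 1, Alb/MDA-9 3, WT 1, WT 2 and WT 3, where the edgeR adjusted p ran between 0.0584 and 0.193.

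Cxcl2, which encodes the CXCR2 ligand also called MIP-2, lies at 90903871 to 90905938, 10.8 kb beyond the end of Cxcl1, and was measured at a much lower level. It had 5.47, 5.24 and 7.53 CPM in the Alb/MDA-9 libraries, against 4.09, 4.92 and 5.56 CPM in the WT libraries. The groups overlapped, since WT 3 lay above Alb/MDA-9 1 and 2. Its log2 change of 0.32 was close to that of Cxcl1, with an SE of 0.20 and an edgeR adjusted p = 0.327, and the 95% interval of the fold ran from 0.922 to 1.70. Its transcript is 98.3% identical to that of Cxcl3 over 116 bases, so reads from that stretch may not have been counted.

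Cxcl5, which encodes the CXCR2 ligand also called LIX, lies on the same chromosome at 90759360 to 90761624 and was near the limit of detection. It had 9, 11 and 10 reads in Alb/MDA-9 1 to 3, against 13, 7 and 4 reads in WT 1 to 3, or 0.580 ± 0.0742 CPM in Alb/MDA-9 and 0.417 ± 0.216 CPM in WT (SD, n = 3 each). WT 1 was the highest of the 6 libraries, so the groups overlapped. The log2 change was 0.44 (SE 0.50, edgeR adjusted p = 0.605), and the 95% interval of the fold, 0.644 to 2.88, spans changes in both directions. Transcripts of 2 other genes, 4930470B04Rik and Ilf2, share stretches of 80 and 87 bases with it at 95% identity or more.

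Ccl2 was the most abundant of the 10 chemokine mRNAs in Alb/MDA-9 hepatocytes and rose more than 2-fold. Its libraries spread over 1.13-fold in Alb/MDA-9 and over 1.02-fold in WT. Ccl2 encodes MCP-1, the main CCR2 ligand that draws monocytes out of blood, and lies on chromosome 11, 82035571 to 82037453, plus strand. The libraries gave 278, 269.9 and 305 CPM in Alb/MDA-9 1 to 3, against 121, 120.0 and 122 CPM in WT 1 to 3. The lowest Alb/MDA-9 library stood far above the highest WT library. The means were 284 ± 18.3 CPM in Alb/MDA-9 and 121 ± 1.06 CPM in WT (SD, n = 3 each), with a model log2 change of 1.23 (SE 0.07, edgeR adjusted p = 3.33e-07) and a fold of 2.35 (95% interval 2.11 to 2.61). Of all tested genes, 0.767% had a larger log2 change, and Ccl2 was called in each of the 15 alternative settings tried.

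Ccl7, which encodes the CCR2 ligand MCP-3 and lies 8.26 kb from Ccl2 at 82045712 to 82047525, was separated by group but did not pass the test. It had 4.70, 4.54 and 3.61 CPM in the Alb/MDA-9 libraries, against 2.37, 2.87 and 2.72 CPM in the WT libraries. Every Alb/MDA-9 library lay above every WT library, with Alb/MDA-9 3 the closest to WT. The log2 change was 0.69 (SE 0.22, edgeR adjusted p = 0.0549), or 1.61-fold with a 95% interval of 1.16 to 2.25. Without Alb/MDA-9 3 the log2 change was 0.80 and the gene was called (edgeR adjusted p = 0.0272), and limma voom with library weights called it too (adjusted p = 0.0303).

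Cx3cl1, which encodes the membrane-bound chemokine fractalkine and lies on chromosome 8, 94772009 to 94782427, was barely detected. It had 5, 3 and 1 reads in Alb/MDA-9 1 to 3, against 5, 0 and 1 reads in WT 1 to 3. The sums were 9 reads in Alb/MDA-9 (95% Poisson interval 4.12 to 17.1) and 6 reads in WT (2.20 to 13.1), intervals that cover counting error only. No difference was detectable at this depth.

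All of the T-cell-attracting genes rose, and 3 of them, Cxcl9, Cxcl10 and Cxcl11, lie next to each other on the minus strand of chromosome 5. Cxcl10, which encodes the CXCR3 ligand IP-10, lies at 92346638 to 92348889. Its levels were 30.3, 23.2 and 16.8 CPM in Alb/MDA-9 1 to 3, against 9.19, 6.56 and 7.46 CPM in WT 1 to 3. The groups did not overlap, and the Alb/MDA-9 libraries were spread 1.80-fold among themselves. The means were 23.4 ± 6.74 CPM in Alb/MDA-9 and 7.74 ± 1.34 CPM in WT (SD, n = 3 each), a model log2 change of 1.60 (SE 0.20, edgeR adjusted p = 0.000222) and a fold of 3.03 (95% interval 2.25 to 4.09). This was the largest change among the 9 tested chemokine genes, and 0.369% of all tested genes had a larger one.

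Cxcl11, which encodes the CXCR3 ligand I-TAC, lies 10.7 kb from Cxcl10 at 92359544 to 92365485. It had 7.40, 7.40 and 5.48 CPM in Alb/MDA-9 1 to 3, against 2.07, 2.67 and 3.20 CPM in WT 1 to 3. The groups did not overlap. The log2 change was 1.36 (SE 0.22, edgeR adjusted p = 0.00156), or 2.57-fold with a 95% interval of 1.83 to 3.59. GENCODE classes mouse Cxcl11 as a polymorphic pseudogene, because strains differ in whether it can be translated, so the rise is one of RNA. The gene Art3 runs across Cxcl10 and Cxcl11 on the opposite strand and had 4 to 8 reads in Alb/MDA-9 and 2 to 3 reads in WT.

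Cxcl9 encodes the CXCR3 ligand MIG, and lies 18.6 kb from Cxcl10 at 92321347 to 92328079. Its levels were 43.2, 56.1 and 28.3 CPM in Alb/MDA-9 1 to 3, against 23.2, 22.9 and 23.7 CPM in WT 1 to 3. The WT libraries lay within 1.04-fold of each other, while the Alb/MDA-9 libraries spread over 1.98-fold. Alb/MDA-9 3 stood only just above the WT libraries. The means were 42.5 ± 13.9 CPM in Alb/MDA-9 and 23.2 ± 0.406 CPM in WT (SD, n = 3 each), with a model log2 change of 0.87 (SE 0.18, edgeR adjusted p = 0.00672) and a fold of 1.83 (95% interval 1.39 to 2.41). Transcripts of Olfr109 and Mob1b share stretches of 80 bases with Cxcl9 at 95% identity or more, which can cost it reads.

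Cxcl16 encodes the membrane-bound CXCR6 ligand and lies away from the others, on chromosome 11 at 70453983 to 70459984, minus strand. It was the T-cell-attracting gene with the highest mean CPM. The libraries gave 78.6, 82.5 and 103 CPM in Alb/MDA-9 1 to 3, against 51.6, 46.9 and 49.6 CPM in WT 1 to 3. The groups did not overlap, and here Alb/MDA-9 3 was the highest library. The means were 88.0 ± 13.0 CPM in Alb/MDA-9 and 49.3 ± 2.33 CPM in WT (SD, n = 3 each), a model log2 change of 0.83 (SE 0.10, edgeR adjusted p = 0.000159) and a fold of 1.78 (95% interval 1.53 to 2.07).

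**Figure D2:**
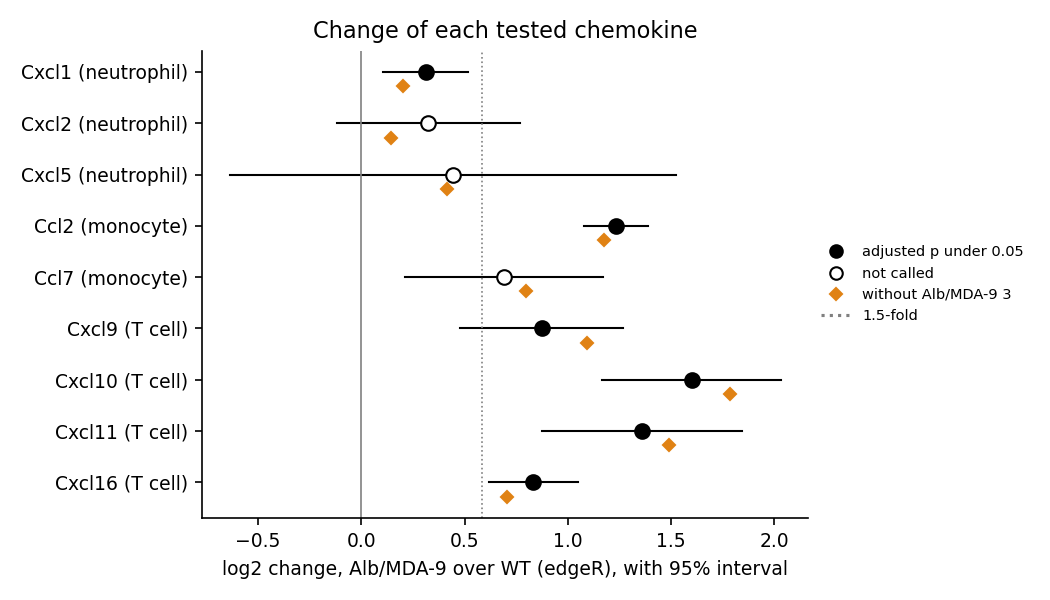
Log2 change, Alb/MDA-9 over WT, of the 9 tested chemokine genes with 95% intervals from edgeR, filled where called, with a dotted line at 1.5-fold and diamonds for the fit without Alb/MDA-9 3. The values run between 0.31 for Cxcl1 and 1.60 for Cxcl10, and the intervals of Cxcl2 and Cxcl5 reach below 0.

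The class comparison asks whether the neutrophil-, monocyte- and T-cell-attracting genes moved by the same amount. Summed over a class, the monocyte-attracting genes had 283, 275 and 309 CPM in Alb/MDA-9 1 to 3, against 124, 123 and 125 CPM in WT 1 to 3, a ratio of means of 2.33. The T-cell-attracting genes summed to 159, 169 and 153 CPM in the Alb/MDA-9 libraries, against 86.0, 79.0 and 83.9 CPM in the WT libraries, a ratio of 1.94. The neutrophil-attracting genes summed to 188, 176 and 226 CPM in the Alb/MDA-9 libraries, against 159, 147 and 169.7 CPM in the WT libraries, a ratio of 1.24. On this scale no class overlapped between the groups. With library totals in place of TMM factors the neutrophil sums did overlap, with Alb/MDA-9 2 at 167 and WT 3 at 175 CPM. Ccl2 made up nearly all of the monocyte sum and Cxcl1 nearly all of the neutrophil sum, so those sums describe a single gene each. The T-cell sum was weighted toward Cxcl16 and Cxcl9, at 88.0 and 42.5 CPM in Alb/MDA-9, against 23.4 for Cxcl10 and 6.76 for Cxcl11. By median log2 change of the tested genes the order differed. The T-cell-attracting class stood at 1.12, the monocyte-attracting class at 0.96 with 2 genes tested, and the neutrophil-attracting class at 0.32.

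The share of each class in the summed CPM of the 10 genes was also taken, which is not corrected for transcript length. The neutrophil-attracting class made up 30.4% ± 2.29 of the CPM of the 10 genes in Alb/MDA-9 and 43.4% ± 1.37 in WT (SD, n = 3 each). The monocyte-attracting class made up 44.7% ± 0.314 in Alb/MDA-9 and 33.9% ± 1.16 in WT. For its part, the T-cell-attracting class made up 25.0% ± 2.52 in Alb/MDA-9 and 22.7% ± 0.589 in WT, and this share overlapped between the groups. Within a library, the monocyte sum was 1.503, 1.56 and 1.36 times the neutrophil sum in Alb/MDA-9 1 to 3, against 0.779, 0.836 and 0.736 times in WT 1 to 3. Per kilobase of transcript, a scale added after the data were seen, the neutrophil-attracting class made up 32.3% ± 1.95 in Alb/MDA-9 and 46.8% ± 1.49 in WT, and the monocyte-attracting class 56.6% ± 0.521 in Alb/MDA-9 and 43.6% ± 1.46 in WT (SD, n = 3 each). On that scale the T-cell-attracting class made up 11.1% ± 1.44 in Alb/MDA-9 and 9.65% ± 0.334 in WT. Within a library, the monocyte sum per kilobase was 1.79, 1.86 and 1.63 times the neutrophil sum in Alb/MDA-9 1 to 3, against 0.925, 0.998 and 0.877 times in WT 1 to 3, so that both classes were at nearly the same level in WT 2. The direction of the difference between the groups in this ratio was the same on both scales.

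**Figure D3:**
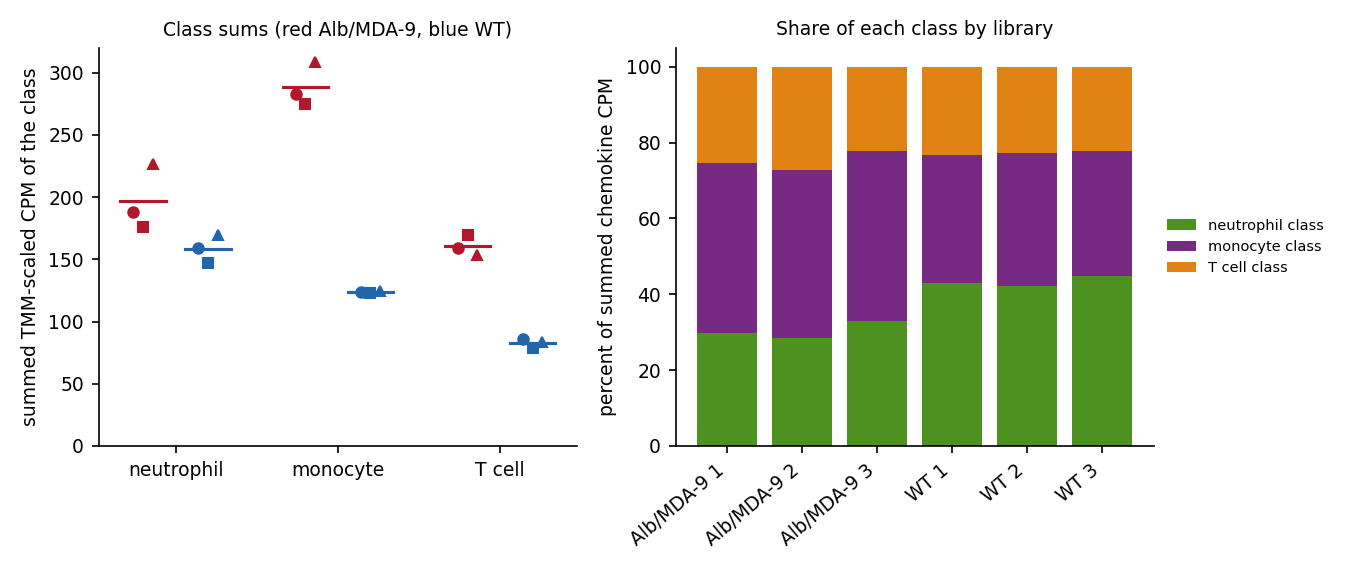
Left, summed CPM of each chemokine class, with Alb/MDA-9 in red left of WT in blue, bars at the means, and circles, squares and triangles for libraries 1, 2 and 3. Right, stacked bars of the percent each class makes up of the summed CPM of the 10 genes in each library, where the monocyte-attracting share averages 44.7% in Alb/MDA-9 and 33.9% in WT.

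Ratios of gene pairs within a library were compared by exact two-sided permutation tests over libraries. With 3 libraries against 3 the smallest p these can give is 0.1, so no pair could pass 0.05, and 5 pairs were compared. The log2 ratio of Cxcl1 to Ccl2 averaged -0.59 in Alb/MDA-9 and 0.34 in WT, a difference of -0.92 with no overlap (exact permutation p = 0.1, adjusted p = 0.167). Ccl7 to Ccl2 differed by -0.54 and Cxcl9 to Cxcl10 by -0.75, again with no overlap and the same exact permutation p and adjusted p. In each of these 3 pairs the first gene had the smaller log2 change of the pair. Cxcl10 to Ccl2 differed by 0.34 with overlap (exact permutation p = 0.3, adjusted p = 0.375), and Cxcl2 to Cxcl1 by 0.01 (exact permutation p = 0.9, adjusted p = 0.9).

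Levels of different genes were compared per kb of the longest coding transcript. In Alb/MDA-9, Ccl2 led at 349.7 CPM per kb, followed by Cxcl1 at 199.6, Cxcl16 at 32.6, Cxcl10 at 17.3 and Cxcl9 at 14.7. Cxcl10 and Cxcl9 overlapped across libraries, as did Ccl7 at 5.35 with Cxcl11 at 4.28 and Cxcl11 with Cxcl2 at 3.27. Cxcl5 at 0.368 and Cx3cl1 at 0.0514 CPM per kb were last. In WT, Cxcl1 at 160.8 and Ccl2 at 148.9 CPM per kb overlapped at the top, and Cxcl16 followed at 18.3. Cxcl9 stood at 8.04, above Cxcl10 at 5.72, then Ccl7 at 3.31 and Cxcl2 at 2.61, which overlapped, and Cxcl11 at 1.67 CPM per kb. The order at the bottom, Cxcl5 at 0.265 and Cx3cl1 at 0.0313 CPM per kb, was the same as in Alb/MDA-9.

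The Alb/MDA-9 libraries did not agree on which chemokine genes were highest. Alb/MDA-9 3 was the highest of the 3 for Cxcl1, Cxcl2, Ccl2 and Cxcl16 and the lowest for Ccl7, Cxcl9, Cxcl10 and Cxcl11. Over the WT mean, Cxcl10 was 3.91-, 3.004- and 2.17-fold in Alb/MDA-9 1 to 3, and Cxcl9 was 1.86-, 2.42- and 1.22-fold. Cxcl16 ran the other way, at 1.59-, 1.67- and 2.08-fold. The CXCR3 ligands thus differed most from WT in libraries 1 and 2, and Cxcl16 in library 3. Without Alb/MDA-9 3, 6 of the 9 genes were again called higher, where 8.60% of all tested genes were, with Ccl7 gained and Cxcl1 lost. Leaving that library out raised the log2 change of Cxcl10 to 1.79 and that of Cxcl9 to 1.09, and lowered those of Cxcl1 and Cxcl2 to 0.20 and 0.14.

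**Figure D4:**
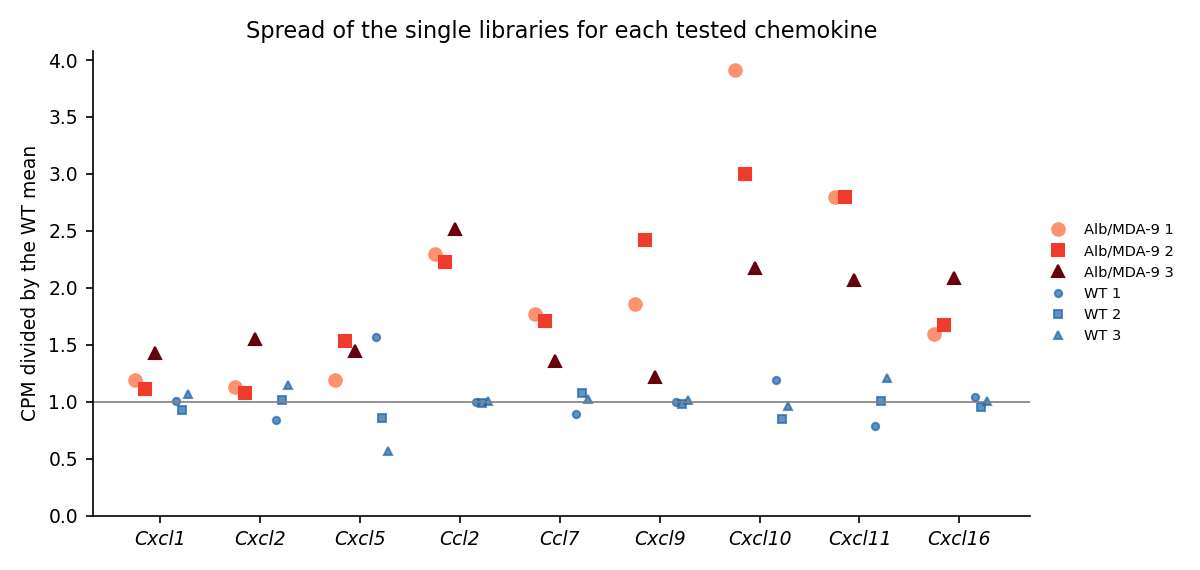
CPM of each tested chemokine gene in each library divided by the gene's WT mean, on a linear axis, with Alb/MDA-9 libraries in reds left of WT libraries in blue and a line at 1. Alb/MDA-9 3 is the highest Alb/MDA-9 library for 4 genes and the lowest for 4.

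The genes with profiles most like the leading gene of each class were sought among 9787 genes with a mean of at least 5 CPM. Likeness was the root mean square difference of centred log2 values over the 6 libraries. The genes named are the nearest of the 9787, so they lie below the median by selection. Closest to Ccl2 were Arhgef40 (0.0487), Acp1 (0.0806) and Cldn4 (0.102), where the median gene was at 0.615. Closest to Cxcl16 were Loxl4 (0.0556), Tnfrsf22 (0.0666) and Lrrc8d (0.0695), against a median of 0.432. Closest to Cxcl1 were Cttnbp2nl (0.0332), S1pr2 (0.0411) and Rhbdf1 (0.0424), against a median of 0.223.

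Genes around the chemokine clusters were counted for comparison. Within 1 Mb of the chromosome 5 chemokines, 36 other genes were tested, of which 3 rose (G3bp2, Shroom3 and Thap6) and 5 fell (Afp, Cox18, Ereg, Parm1 and Sept11). The median of their log2 changes was -0.03. Around Ccl2 and Ccl7, 13 others were tested, of which Slfn9 was the 1 called and fell, with a median of -0.10. Around Cxcl16, 66 others were tested, of which 8 rose and 2 fell, with a median of 0.08. Around Cx3cl1, 36 others were tested, of which 0 rose and 2 fell, with a median of -0.0063. Over all tested genes 7.35% were called higher and 7.09% lower. The remaining chemokines of the genome, 28 listed and 11 tested, moved both ways, with 2 higher and 3 lower, and their median was -0.25 on the log2 scale.

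Ccl9 and Ccl6, CC chemokines of myeloid cells in mice, both fell. Ccl9 had 46.6, 52.4 and 50.8 CPM in Alb/MDA-9 1 to 3, against 97.5, 84.3 and 85.4 CPM in WT 1 to 3, with no overlap (log2 change -0.84, SE 0.08, edgeR adjusted p = 3.70e-05). Ccl6 averaged 2.01 ± 0.596 CPM in Alb/MDA-9 and 4.24 ± 0.155 CPM in WT (SD, n = 3 each), a model log2 change of -1.08 (SE 0.25, edgeR adjusted p = 0.0140) that was not called without Alb/MDA-9 2, WT 1 or WT 2. Cxcl12, the stromal ligand of CXCR4, fell to 14.5 ± 2.47 CPM in Alb/MDA-9, against 27.99 ± 1.25 CPM in WT (SD, n = 3 each; log2 change -0.95, SE 0.12, edgeR adjusted p = 0.000283). Cxcl17, a mucosal chemokine, had 54 reads in Alb/MDA-9 and 7 in WT and was called higher (edgeR adjusted p = 0.00391), but it passed the read filter through its Alb/MDA-9 libraries only and so had to differ. Ccl5, also called RANTES, was also called higher, but not without Alb/MDA-9 1, Alb/MDA-9 2, WT 2 or WT 3. Another 10, among them Ccl8, Ccl11 and Ccl22, had 0 reads in every library.

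The leukocyte receptors of these ligands had few reads in the cultures. Of 23 listed receptor genes 5 were tested, and edgeR called 0 in either direction, with 0 higher and 2 lower at an unadjusted p under 0.05. Library totals or a minimum count of 50 each called 1 lower, and DESeq2 and limma voom called 0. Cxcr2 had 2 reads over the Alb/MDA-9 libraries and 0 over the WT libraries, Ccr2 had 1 and 2, and Cxcr3 had 5 and 2. Cx3cr1 had 5 reads over the Alb/MDA-9 libraries and 17 over the WT libraries, and Ackr1, a decoy receptor that binds many inflammatory chemokines, had 4 and 21. Cxcr6 had 0 reads in all 6 libraries. The atypical receptors Ackr3, which binds CXCL11, and Ackr2, which binds CCL2 and CCL7, had more reads and were named after their values were seen. Ackr3 had 298 reads over the Alb/MDA-9 libraries and 288 over the WT libraries (log2 change 0.15, SE 0.25, edgeR adjusted p = 0.740), and Ackr2 had 153 and 136 (log2 change 0.29, SE 0.24, edgeR adjusted p = 0.474).

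Of 11 genes for shedding or trimming of chemokines, all tested, 1 rose and 1 fell. This is near the share over all tested genes, of which 7.35% were called higher and 7.09% lower. Timp1, an inhibitor of metalloproteinases, fell to 8.98 ± 2.21 CPM in Alb/MDA-9, against 16.4 ± 2.58 CPM in WT (SD, n = 3 each; log2 change -0.87, SE 0.18, edgeR adjusted p = 0.00647). Rhbdf1, which encodes a partner of the sheddase ADAM17, averaged 44.9 ± 4.80 CPM in Alb/MDA-9 and 36.4 ± 1.54 CPM in WT (SD, n = 3 each; log2 change 0.31, SE 0.09, edgeR adjusted p = 0.0410). The call of Rhbdf1 did not hold with library totals or without any 1 of Alb/MDA-9 1, Alb/MDA-9 3, WT 1, WT 2 and WT 3. The sheddase genes Adam10 and Adam17, which act on CXCL16 and CX3CL1, did not pass the test.

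Of 29 genes of the NF-kB arm 26 were tested, of which 9 were higher and 1 lower, and the median of their log2 changes was 0.15. The earlier results of these data already showed this direction, so the count is not independent evidence. Over all tested genes the shares were 7.35% higher and 7.09% lower. Tnfaip3, the feedback inhibitor A20, had 146, 136 and 159 CPM in Alb/MDA-9 1 to 3, against 78.9, 73.7 and 80.8 CPM in WT 1 to 3, with no overlap (log2 change 0.92, SE 0.08, edgeR adjusted p = 1.24e-05). Nfkb1, which encodes the p105 and p50 subunit, had a log2 change of 0.70, Nfkbiz, an inducible co-activator, 0.61, and Bcl3, a nuclear partner of p50, 0.55, with edgeR adjusted p-values between 6.47e-05 and 0.000424. Relb, Nfkb2, Nfkbie, Tlr2 and Myd88 also rose, and the interleukin-1 receptor gene Il1r1 fell. Without WT 2 the number that rose was 6. The number that fell was 0 without Alb/MDA-9 1, Alb/MDA-9 2, WT 1 or WT 2, 2 without Alb/MDA-9 3 and 4 with library totals.

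Of 20 genes of the interferon arm 18 were tested, and 5 rose and 0 fell, with 8 higher and 0 lower at an unadjusted p under 0.05 and 0 lower by DESeq2 or limma voom. The median of their log2 changes was 0.16. Among all tested genes 7.35% were called higher and 7.09% lower. Ifngr2, a chain of the interferon gamma receptor, averaged 103 ± 5.74 CPM in Alb/MDA-9 and 73.2 ± 4.23 CPM in WT (SD, n = 3 each; log2 change 0.49, SE 0.08, edgeR adjusted p = 0.000950). Stat2 averaged 209 ± 6.50 CPM in Alb/MDA-9 and 162 ± 4.43 CPM in WT (SD, n = 3 each; log2 change 0.37, SE 0.07, edgeR adjusted p = 0.00268). The transcription factor genes Irf1 and Irf7 had log2 changes of 0.40 and 0.36, and Tyk2, a kinase of interferon receptors, was called too. Interferon gamma itself, Ifng, had 0 reads in all libraries. The number that rose was 2 without Alb/MDA-9 2 or WT 2, 3 without WT 3, and 8 with limma voom.

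Of 10 genes that act on AU-rich or stem-loop elements of chemokine mRNAs, all tested, 2 rose and 1 fell. The shares over all tested genes were 7.35% higher and 7.09% lower. Zfp36l1, which encodes a protein that binds AU-rich elements, averaged 371 ± 23.0 CPM in Alb/MDA-9 and 307 ± 17.2 CPM in WT (SD, n = 3 each; log2 change 0.28, SE 0.07, edgeR adjusted p = 0.0270). Rc3h1, which encodes roquin, had a log2 change of 0.35 and Zfp36l2, a relative of Zfp36l1, one of -0.32. Library totals called 0 of them higher, 1 was called higher without any 1 of Alb/MDA-9 1, Alb/MDA-9 2, WT 1 and WT 2, and 0 lower without Alb/MDA-9 2, WT 2 or WT 3.

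**Figure D5:**
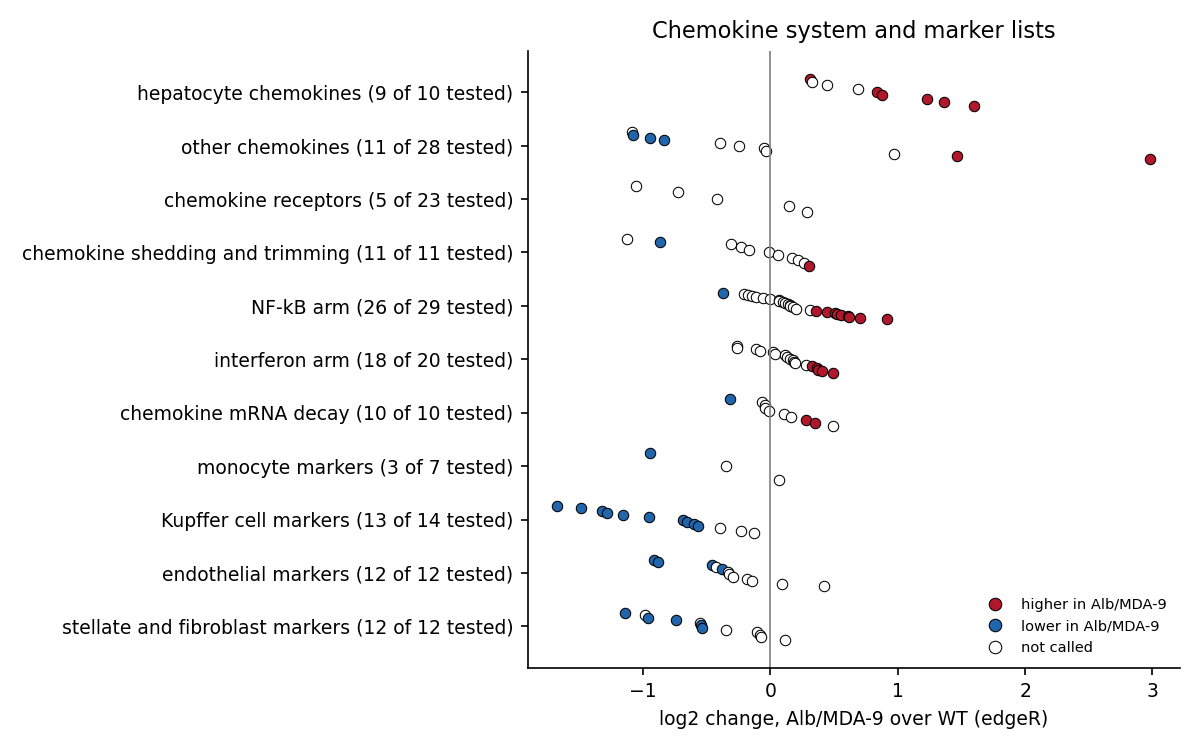
Log2 change, Alb/MDA-9 over WT, with 1 point per tested gene of the chemokine, pathway, monocyte, Kupffer cell, endothelial, and stellate and fibroblast lists. Points are red where called higher, blue where called lower and white where not called. The hepatocyte and the cholangiocyte and mesothelial markers, some of them called higher, are not drawn, nor are neutrophil, T or NK cell markers. All 9 tested hepatocyte chemokines lie above 0, and the 13 tested Kupffer cell markers lie below it.

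All 12 hepatocyte markers passed the read filter, with Alb, the albumin gene, at 55090 to 70170 CPM in Alb/MDA-9 and 54048 to 58379 CPM in WT. Alb was not called (edgeR adjusted p = 0.355). Of the 12 markers 2 rose and 3 fell, and the median of their log2 changes was -0.10. Among all tested genes 7.35% were called higher and 7.09% lower. The list summed to 86237 to 100968 CPM in Alb/MDA-9 and 81469 to 84911 CPM in WT, and Alb made up most of it. Those that rose were Trf and Apob, also named after their values were seen. In the settings tried their log2 changes ran from 0.45 to 0.60 for Trf and from 0.25 to 0.39 for Apob. Those that fell were Tat, Cps1 and Ass1, enzymes of amino acid and urea metabolism that were named after their values were seen. The level of Tat was 18.8, 9.67 and 4.46 CPM in Alb/MDA-9 1 to 3, against 76.4, 85.0 and 69.7 CPM in WT 1 to 3, with a model log2 change of -2.80 that was -3.44 without Alb/MDA-9 1. Cps1 had a model log2 change of -0.95 and Ass1 one of -0.75. The number that rose was 5 without Alb/MDA-9 3 and 1 without WT 2 or with library totals, while 3 fell in every fit that left out 1 library.

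Of the 14 Kupffer cell markers 13 were tested, of which 10 fell and 0 rose, with 0 higher at an unadjusted p under 0.05 and 0 by DESeq2 or limma voom. Without Cd68, which made up most of the sum, they summed to 86.2, 101 and 118 CPM in Alb/MDA-9 1 to 3, against 181, 175 and 171 CPM in WT 1 to 3. Without WT 1 or WT 2 the number that fell was 7. Over all tested genes 7.09% were called lower in the main test. Of 12 tested endothelial markers 4 fell, and of 12 tested stellate and fibroblast markers 5 fell, a number that was 2 or 3 without any 1 of Alb/MDA-9 2, WT 1, WT 2 and WT 3. The endothelial list summed to 213 to 233 CPM in Alb/MDA-9 and 274 to 296 CPM in WT, and the stellate and fibroblast list to 224 to 287 CPM in Alb/MDA-9 and 322 to 345 CPM in WT. Without Reln, which was not called, the stellate and fibroblast sums were 119 to 128 CPM in Alb/MDA-9 and 179 to 188 CPM in WT.

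Cells that the chemokines attract left few reads. Of 13 T and NK cell markers 9 had 0 reads in every library, Cd3d, Cd3g, Nkg7 and Ncr1 among them, and the list summed to 0.602 to 1.22 CPM in Alb/MDA-9 and 0.473 to 1.03 CPM in WT. The neutrophil markers Ly6g, Retnlg, Ngp and Camp had 0 reads in every library, and of 3 tested of 9 listed 0 were called, with 0 at an unadjusted p under 0.05 and 0 by DESeq2 or limma voom. The list summed to 5807 to 6480 CPM in Alb/MDA-9 and 5991 to 6781 CPM in WT, and without Lcn2, which hepatocytes also express, to 0.723 to 1.88 CPM in Alb/MDA-9 and 1.57 to 2.19 CPM in WT. Monocyte markers summed to 3.73 to 5.30 CPM in Alb/MDA-9 and 7.02 to 7.83 CPM in WT, and 1 of 3 tested, Plac8, fell, but not without Alb/MDA-9 2, WT 1 or WT 3. Among markers of cholangiocytes and mesothelium 6 were tested, with 3 higher and 2 lower, and they summed to 252 to 361 CPM in Alb/MDA-9 and 59.8 to 66.7 CPM in WT. Without Spp1 these sums were 80.2 to 83.9 CPM in Alb/MDA-9 and 58.5 to 65.9 CPM in WT. The higher sums do not hold for each marker. The 2 called lower were Msln and Krt7, named after their values were seen. In the settings tried their log2 changes ran from -4.64 to -2.80 for Msln and from -2.13 to -1.43 for Krt7. The part of these cell types in the chemokine values was not tested.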

How the data were processed

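Per the labels' protocols, libraries were made with a TruSeq kit and sequenced on a HiSeq3000 in repeated rounds. The submitters' processing notes name the builds mm10 and GRCm38, and edgeR 3.18.1, STAR 2.7.9a, Trim Galore 0.6.6 and FastQC 0.11.2. Options and annotation release: not given in the sources used here. The deposited tables hold raw read counts per gene that the authors made with STAR, which counts reads aligned to 1 place and 1 gene. The column of the annotated strand was used, which held 96.9% to 97.2% of stranded reads. Unmapped reads were 9.22% to 10.4% and reads mapped to several places 18.7% to 20.2% of a library, and rows that name no gene were left out.

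Genes passing filterByExpr at a minimum count of 10 were tested with edgeR 4.0.16 (glmQLFit and glmQLFTest, R 4.3.3) on TMM factors over the 6 libraries with 4 residual degrees of freedom, Alb/MDA-9 over WT, Benjamini-Hochberg adjusted over 13296 genes. The fit was tested on simulated data. The SE is the log2 change over the square root of F. DESeq2 1.42.0 and voom of limma 3.58.1 were alternatives. All 10 chemokines were named. Of each pathway list at most the 4 called genes with the smallest p, plus the receptors of the 10, got values, and of each marker list at most 2 genes were to be named beside those at 0 reads or left out of a sum. The 10 chemokines and the lists were chosen with earlier results of these data known. Symbols, coordinates and 3′ UTRs came from GENCODE on GRCm38, and promoters from RefSeq on GRCm38.p6.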

Additional observations from a re-analysis of the deposited data

How the results depend on the processing

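Of the 10 chemokines, the number called higher in Alb/MDA-9 was 6 in edgeR's main test and 5 to 7 in 14 of 15 alternatives, and the number called lower was 0 in all 15. Against a fold of 1.5, glmTreat called 3 chemokines and 240 of all genes, where the main test called 1920. Leaving out 1 library at a time gave 5 to 6 chemokines and 1018 to 2386 genes in all. The log2 ratio of summed CPM, 1.22 for the monocyte-attracting and 0.95 for the T-cell-attracting class, was 1.12 and 0.85 with library totals, which scale all genes alike by library, and 1.22 and 1.03 per kilobase of transcript, a scale chosen after seeing the data. For the neutrophil-attracting class this log2 ratio was 0.31, and it was 0.21 with library totals and 0.31 per kilobase. No direction of a tested chemokine was reversed. The calls of Cxcl1 and Ccl7 were the ones that turned on the setting, with glmTreat also ending those of Cxcl9 and Cxcl16, and the cause was not tested. Of the other lists, glmTreat called 1 NF-kB gene, 0 interferon genes and 1 other chemokine higher, and 0 other chemokines, 3 Kupffer, 0 endothelial and 1 stellate markers lower. The other chemokine that glmTreat called higher was Cxcl17, which passed the read filter through its Alb/MDA-9 libraries only and so had to differ. A minimum count of 50 called 0 other chemokines higher. Depth limits Cxcl5 and Cx3cl1.

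The labels do not say whether replicate numbers pair the libraries. After centring within groups, the correlations of same-numbered libraries were -0.0525, -0.00368 and -0.0664. These show no pairing, but with 3 libraries per group they cannot exclude one. With the replicate number as a block, 1601 genes and 6 chemokines higher were called, and the stellate markers called lower were 3 in place of 5. The mRNA decay genes called were then 1 higher in place of 2 and 0 lower in place of 1, with Zfp36l1 and Zfp36l2 no longer called, and the NF-kB genes called higher were 8 in place of 9, without Tlr2.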
